A study of Mus musculus with 2 samples.

Results

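The interacting sites of a Pou5f1 enhancer that lie beside transcript starts in mouse ES cells were examined. A listed site was taken when its middle was at most 5000 bp from the nearest annotated transcript start of any gene type, and 330 of the 1009 listed sites met this rule. Of these, 312 were on other chromosomes than the bait and 18 were on chromosome 17, which carries Pou5f1. The rule used only position, so the distance of a site inside the 5 kb limit, its side of the start, its gene and its sequence were free to vary.

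The data came from 2 replicate samples of 1 condition, E14 mouse ES cells grown with LIF and cross-linked with 1% formaldehyde, with an enhancer upstream of Pou5f1 as the 4C bait. Chromatin was broken by sonication, ligated and amplified by nested PCR, and 20-bp end tags were mapped to mm9. The list held the sites of regions found in both replicates, as positions without a read count or a replicate. The authors had removed sites supported by a single read, but the depth behind a listed site was otherwise unknown. No value could be split by replicate. No treated or control condition was part of the data, and the comparisons were made with the other listed sites and with every base or position of the same genomic regions, which were rebuilt from the list by joining neighbouring sites over gaps of up to 1 Mb (up to 200 kb on the bait's chromosome).

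In 4C, DNA pieces that were held near a chosen bait in the cross-linked nucleus are ligated to it, so a site in the list marks DNA that was joined to the bait. Enhancers are regulatory elements that raise transcription from promoters, the sequences around transcript starts, often over long distances and through loops. Many mammalian promoters are rich in G+C and CpG dinucleotides, while others, often those of genes used in few tissues, are CpG-poor. Pou5f1 encodes Oct4, a transcription factor on which the pluripotency of ES cells depends.

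The sites closest to a start show what the interacting tags look like. They are printed 5′ to 3′ on the strand of the gene, from NCBIM37 (mm9), with CpG dinucleotides in capitals, for the 11 sites of 20 to 30 bases among the 12 sites that were closest to a start and had an end that occurs once in the genome.
Txndc5 (chr13:38619764-38619783, minus strand): cctgtgctggcCGgaCGCGg
Fam180a (chr6:35276143-35276165, minus strand): aacagagcctctgtgtggaagcc
Mark2 (chr19:7369948-7369967, minus strand): gaaggaagttgttttaaacc
Pla2g2c (chr4:138280725-138280744, plus strand): agggCGggCGagggggttgg
Slc7a10 (chr7:35983957-35983976, plus strand): aggtgactggtctgaggaga
Hdac11 (chr6:91107189-91107208, plus strand): atgtgaccttgggcacacct
Ctse (chr1:133558430-133558456, plus strand): agaccttatcattgggtcctcagactg
Gprc5c (chr11:114713681-114713704, plus strand): CGgtgaaaacccaaggggtgggtg
Egfl6 (chrX:163023581-163023605, minus strand): gctctccacctctgCGCGggctgcc
Mif4gd (chr11:115473365-115473384, minus strand): ttcacccttgaagcctcaac
Cd3g (chr9:44778826-44778845, minus strand): cCGggaatatgaccagtaca

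The offsets of these sites, from the start to the middle of the site with upstream negative, ran from -46 to 68 bp. Txndc5, which encodes a disulfide isomerase of the endoplasmic reticulum, had a site 10 bp downstream of a start, and that of Fam180a was at -12 bp. Sites within 50 bp of a start were also found at Mark2, a microtubule-affinity kinase gene (-20 bp), Pla2g2c, a secreted phospholipase gene (27 bp), Slc7a10, a neutral amino acid transporter gene (30 bp), Hdac11, a histone deacetylase gene (40 bp), and Ctse, the cathepsin E gene (-46 bp). Gprc5c, an orphan receptor gene (59 bp), Egfl6, which encodes a secreted protein with EGF repeats (60 bp), Mif4gd (66 bp) and Cd3g, which encodes a chain of the T cell receptor complex (68 bp), followed. The 12th site, of the noncoding transcript Gm16099, was at -37 bp and was 48 bp wide. Only Fam180a, Pla2g2c and Egfl6 among the 12 had their site beside the 5′-most start of the gene. The Mark2, Ctse, Slc7a10 and Cd3g sites were beside internal starts, 46393, 23559, 12562 and 9679 bp downstream of the 5′-most start of the gene.

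Windows of 200 bp around 4 sites that lay just upstream of a start, and whose windows held no annotated exon, are printed to show the sequence in which such tags lay, on the strand of the gene and with the site in capitals.
Tsc1 (chr2:28518663-28518862, plus strand): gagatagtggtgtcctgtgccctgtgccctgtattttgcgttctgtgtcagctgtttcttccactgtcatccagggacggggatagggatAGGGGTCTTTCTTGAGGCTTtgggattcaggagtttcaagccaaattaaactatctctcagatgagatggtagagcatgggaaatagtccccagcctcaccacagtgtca
Gm13835 (chr6:31092727-31092926, minus strand): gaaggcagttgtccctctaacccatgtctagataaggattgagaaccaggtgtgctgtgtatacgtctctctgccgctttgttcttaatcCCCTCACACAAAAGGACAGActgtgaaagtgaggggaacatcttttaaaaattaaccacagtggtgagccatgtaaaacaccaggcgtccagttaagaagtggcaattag
Cel (chr2:28419015-28419214, minus strand): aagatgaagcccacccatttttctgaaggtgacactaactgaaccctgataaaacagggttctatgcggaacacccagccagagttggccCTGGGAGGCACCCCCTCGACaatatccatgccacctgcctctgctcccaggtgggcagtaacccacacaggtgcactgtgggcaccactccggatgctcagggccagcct
Anp32e (chr3:95734125-95734324, plus strand): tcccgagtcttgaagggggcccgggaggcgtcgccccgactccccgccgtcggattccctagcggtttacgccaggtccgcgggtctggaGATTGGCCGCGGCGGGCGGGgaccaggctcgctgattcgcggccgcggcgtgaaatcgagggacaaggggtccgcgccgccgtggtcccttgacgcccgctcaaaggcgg

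The Tsc1 and Anp32e sites lay inside their genes, beside internal starts, 22014 and 1055 bp downstream of the 5′-most start of the gene. The Gm13835 and Cel sites lay upstream of the 5′-most start and outside every annotated gene. The printed windows differed widely in base composition. The window at Anp32e, whose product is a chaperone of the histone variant H2A.Z, had 30 CpG dinucleotides and 72.5% G+C, and its site was 235 bp upstream of the start. The windows at Tsc1, the hamartin gene (site at -150 bp), at the pseudogene Gm13835 (-163 bp) and at Cel, a lipase gene (-191 bp), had 2, 3 and 3 CpG dinucleotides and 49.5%, 45% and 57.5% G+C.

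Within 5 kb of a start, interacting sites were found most densely in the first 250 bp and least densely in the last kb. The median distance was 1762.5 bp (range 10 to 4983 bp), and the median over all bases of the regions within 5 kb of a start was 2058 bp. Of the 330 sites, 40 (12.1%, 95% Wilson interval 9.03 to 16.1%) lay within 250 bp, where 8.03% of the near-start bases lay, a ratio of 1.51 (1.12 to 2.0). Among the sites with an end that occurs once in the genome, 38 of 313 (12.1%) were within 250 bp, against 8.74% of the near-start positions with such a 20-bp sequence. From 4 to 5 kb the order was the other way round, with 36 sites (10.9%) against 15.1% of bases and a ratio of 0.723 (0.529 to 0.976). In the 5 bins between 250 bp and 4 kb the interval of the sites included the share of bases, and no adjustment was made for the number of bins. Within 1 kb lay 104 sites (31.5%, 26.7 to 36.7%), where 27.1% of bases lay, so the share within 1 kb as a whole was not resolved from that of bases.

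**Figure D1:**
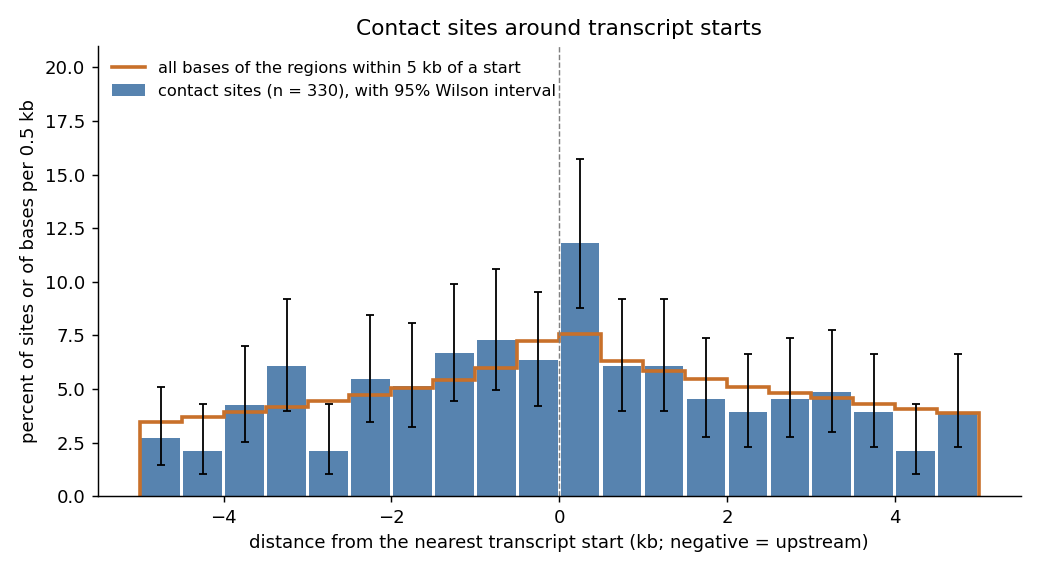
Percent of the 330 interacting sites (bars, with 95% Wilson intervals) and of all bases of the regions within 5 kb of a start (line) per 0.5 kb of distance from the nearest transcript start, with negative distances upstream. The bin from 0 to 500 bp downstream held 39 sites, 11.8% (8.77 to 15.7%), against 7.55% of bases.

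The sites close to a start lay more often in the transcribed part than upstream of it. Of the 40 sites within 250 bp, 13 (32.5%, 20.1 to 48.0%) were upstream, where 49.0% of the bases within 250 bp were. The bin of 500 bp just downstream of the start held 39 sites, and the bin of 500 bp just upstream held 21 (6.36%, against 7.24% of bases). Within 1 kb, 45 of 104 sites (43.3%, 34.2 to 52.9%) were upstream, against 48.7% of bases, so the sides were not resolved at this distance. Over the whole 5 kb, 159 sites (48.2%, 42.8 to 53.6%) were upstream, against 48.1% of bases. Nr2c2, which encodes a nuclear receptor, and Sik3, a kinase gene, are examples of both sides, with sites at 175 and -241 bp (named after their values were seen). The kind of start within 250 bp did not differ from that of bases beyond the intervals: 32 of the 40 nearest starts (80%) belonged to protein-coding genes and 10 (25.0%) were CpG-rich, against 83.1% and 26.5% of bases.

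The starts were largely those of protein-coding genes, in a share near that of the regions themselves. The nearest start was that of a protein-coding gene for 272 sites (82.4%, 78.0 to 86.2%), and for 80.4% of the near-start bases. Pseudogenes had 19 sites, processed transcripts 17, lincRNAs 9, miRNAs 5, miscellaneous RNAs 4, snRNAs 3 and rRNAs 1, and each of these shares included that of the bases in its interval. The snoRNAs had 0 sites (upper limit of the Wilson interval 1.15%), against 1.21% of bases. The 330 sites had 325 distinct nearest starts of 308 genes, and 5 starts were nearest to 2 sites, among them the single starts of Fam180a and of the lincRNAs Gm11762 and Gm17608.

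Many of these starts were not the outermost start of their gene. The nearest start was the 5′-most start for 142 sites (43.0%, 37.8 to 48.4%), against 48.3% of the near-start bases. Within 5 kb of the 5′-most start of a protein-coding gene lay 157 sites (47.6%, 42.2 to 53.0%, against 48.4% of near-start positions), and within 1 kb 44 (13.3%, 10.1 to 17.4%, against 10.2%). Of the 159 sites upstream of their nearest start, 72 were inside the gene that owns that start and 68 were outside every gene. By their place in the nearest transcript, 81 sites were in the first intron, 21 in the first exon, 26 in a later intron, 13 in a later exon and 30 beyond the end of a short transcript. First exons and first introns together held 102 sites (30.9%, 26.2 to 36.1%, against 28.4% of near-start positions), and 252 sites (76.4%, 71.5 to 80.6%, against 72.8%) were inside a gene of some kind. First exons alone held 6.36% (4.20 to 9.53%), against 4.11% of near-start positions. The label of these sites as near transcription start sites thus holds for annotated starts of any transcript, and use of the starts in ES cells was not measured in these data.

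The share of CpG-rich starts beside interacting sites included that of near-start bases in its interval. A start was counted as CpG-rich where the 1 kb centred on it had at least 50% G+C and a ratio of observed to expected CpG of at least 0.6. This held for the nearest start of 75 sites (22.7%, 18.5 to 27.5%), against 25.0% of near-start bases. Counted by starts, 75 of the 325 starts (23.1%) were CpG-rich, against 3703 of the 9491 other starts of the regions (39.0%), a difference of -15.9 percentage points (-20.3 to -11.0). The size depended on the criteria, at -8.55 points (-12.4 to -3.96) with a window of 2 kb and -9.34 points (-12.7 to -5.14) with at least 55% G+C and a ratio of at least 0.75. Starts that stand close together have few bases each for which they are the nearest, so the share over bases is the one measured in the same way as that of the sites. Of the closest sites, those of Txndc5, Gprc5c and Mif4gd were at CpG-rich starts, and the Ctse start had a CpG ratio of 0.0782.

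The DNA around 20 sites was itself CpG-rich by the same criteria, over the 1 kb centred on the site (6.06%, 3.96 to 9.18%). This share included the 4.13% of near-start positions in its interval. Among the 679 other listed sites it was 0, which allows a share of up to 0.442% by a limit of 3 counts and of up to 0.563% by the Wilson interval, and 0.141% of the positions over 5 kb from a start had such sequence. Of the 20 sites, 18 were within 1 kb of the start, 19 had an end that occurs once in the genome, and they came from 16 regions. Besides Txndc5, Gprc5c and Anp32e they included, named after their values were seen, Nr2c2 (175 bp, 74.5% G+C), Crmp1, a gene of neuronal development (448 bp, 66.5%), Srpk1, a splicing factor kinase gene (614 bp, 65.3%), and Nucks1, which encodes a chromatin-associated phosphoprotein (892 bp, 58.3%). The site farthest from its start was in Pdgfb, a growth factor gene (2627 bp, 64.6%), and Skil, which encodes a repressor of Smad signalling, had one at -1170 bp (59.4%).

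The interacting sites near starts were richer in G+C than the near-start DNA of the same regions. The 1 kb around the 330 sites had a mean of 50.8% G+C (SD 6.16, range 34.2 to 74.5%). In 36 of the 44 regions with a site the mean of the sites was above that of all positions within 5 kb of a start, and the difference averaged 2.31 percentage points (SD 3.99, 95% interval 1.10 to 3.52, n = 44 regions). With sites and positions limited to 20-bp sequences that occur once in the genome, it was 1.99 points (0.804 to 3.18, higher in 34 of 44 regions). The excess was present close to the starts and away from them, at 2.71 points (0.744 to 4.67, higher in 23 of 38 regions) within 1 kb and 1.45 points (0.562 to 2.33, higher in 30 of 42 regions) from 1 to 5 kb. Within 1 kb and with sequences that occur once, it was 2.24 points (0.239 to 4.25) and higher in 20 of 37 regions.

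**Figure D2:**
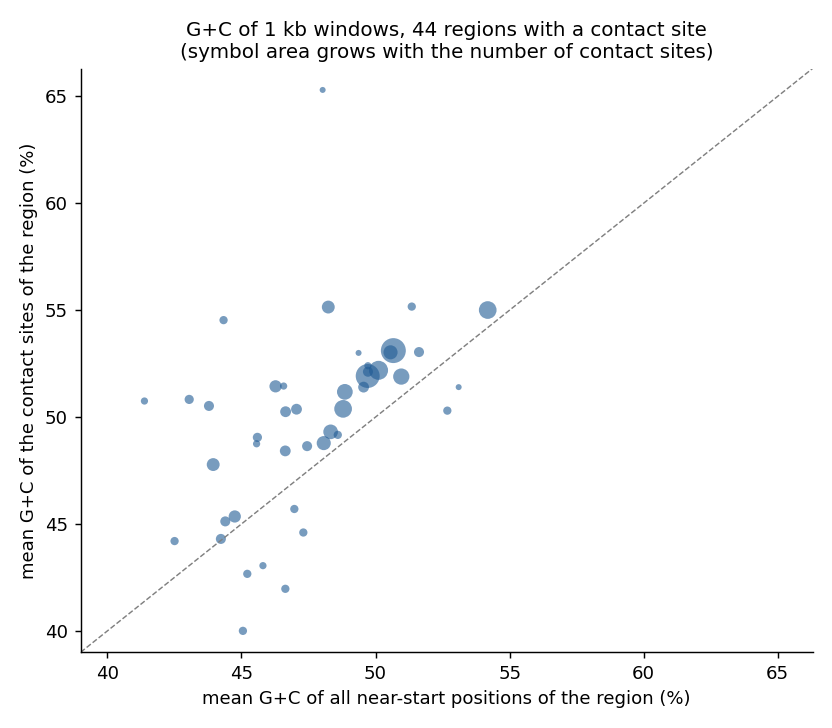
Mean G+C (percent) of 1 kb windows for the interacting sites near starts (vertical axis) against all positions within 5 kb of a start (horizontal axis), with 1 point for each of the 44 regions and equal values on the dashed line. Of the 44 points, 36 lie above the line, and the highest point is a region of 1 site, at Srpk1 (65.3% G+C).

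An excess over the positions of the same kind was found for the other listed sites too. These 679 sites exceeded the positions over 5 kb from a start by 1.50 points (1.10 to 1.90, higher in 43 of 47 regions), and the difference of both excesses was 0.854 points (-0.433 to 2.14, n = 44 regions), which includes 0. In level, the sites near starts had 2.39 points more G+C than the other listed sites of their region (1.00 to 3.77, higher in 31 of 44 regions). The difference was 2.42 points (1.00 to 3.85, 44 regions) against sites deep inside genes, of which there were 351, and 2.18 points (0.925 to 3.44, 41 regions) against the 328 sites outside genes. The part of PCR, end-tag mapping or chromatin in these differences was not tested.

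Short sequence motifs were searched on both strands of the 300 bp around each site, and 4 of the 12 had a share whose interval excluded that of all near-start windows of the same length, with no adjustment for the number of motifs. The GC box GGGGCGGGG, bound by Sp and Klf factors, was in 12 windows (3.64%, 2.09 to 6.25%), against 1.73% of all near-start windows and 1.33% of the windows of other listed sites. The letters AGGGGGC, part of the Ctcf motif, were in 28 windows (8.48%, 5.94 to 12%, against 4.95% and 6.77%). AGGCCT, the core of the Zfx motif, was in 51 (15.5%, 12 to 19.7%), against 11.6% of all near-start windows, 12.3% of those with a 20-bp sequence that occurs once and 13.3% of those of other listed sites. Both of the last values lie inside the interval. The TATA box letters TATAAA went the other way, with 32 windows (9.70%, 6.95 to 13.4%), against 15.1% and 14.6%. Against the other listed sites, the differences for the Ctcf letters (1.71 points, -1.62 to 5.59) and for AGGCCT (2.20 points, -2.26 to 7.09) included 0, and those for the GC box (2.31 points, 0.371 to 5.00) and the TATA box letters (-4.88 points, -8.84 to -0.466) did not. The GC box and the TATA box letters kept an interval apart from near-start windows in windows of 150 and 600 bp and without chromosome 17. AGGCCT kept it in windows of 150 bp (9.70%, 6.95 to 13.4%, against 5.95%) and 600 bp (31.2%, 26.5 to 36.4%, against 21.8%). Without chromosome 17 AGGCCT lost it (15.1%, 11.5 to 19.5%, against 11.6%). The Ctcf letters lost it in windows of 150 bp (3.33%, 1.87 to 5.87%, against 2.49%) and kept it in windows of 600 bp (14.8%, 11.4 to 19.1%, against 9.66%). The GC box, the Ctcf letters and AGGCCT hold more G+C than A+T and TATAAA holds none, and the sites were richer in G+C as given above. Its part in these shares was not tested.

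The Oct4, Sox, Klf GT box and Esrrb motifs were in shares whose intervals included those of all near-start windows of 300 bp. The octamer ATGCAAAT, which Oct4 binds, was in 3 windows (0.909%, 0.310 to 2.64%, against 1.24%). The Sox motif CATTGTT was in 18 (5.45%, against 3.67%), the Klf motif GGGTGTGG in 16 (4.85%, against 3.22%) and the Esrrb motif TCAAGGTCA in 2 (0.606%, against 1.01%). The E-box CACGTG was in 15 windows (4.55%, against 4.68%), the Ets motif CCGGAAGT in 3 (0.909%, against 0.445%), the Nrf1 motif GCGCATGC in 1 (0.303%, against 0.827%) and the Creb motif TGACGTCA in 0 (against 0.262%). In windows of 600 bp the interval of the Klf motif excluded the share of near-start windows (30 windows, 9.09%, 6.44 to 12.7%, against 6.37%). A match is a run of letters and not a bound site.

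**Figure D3:**
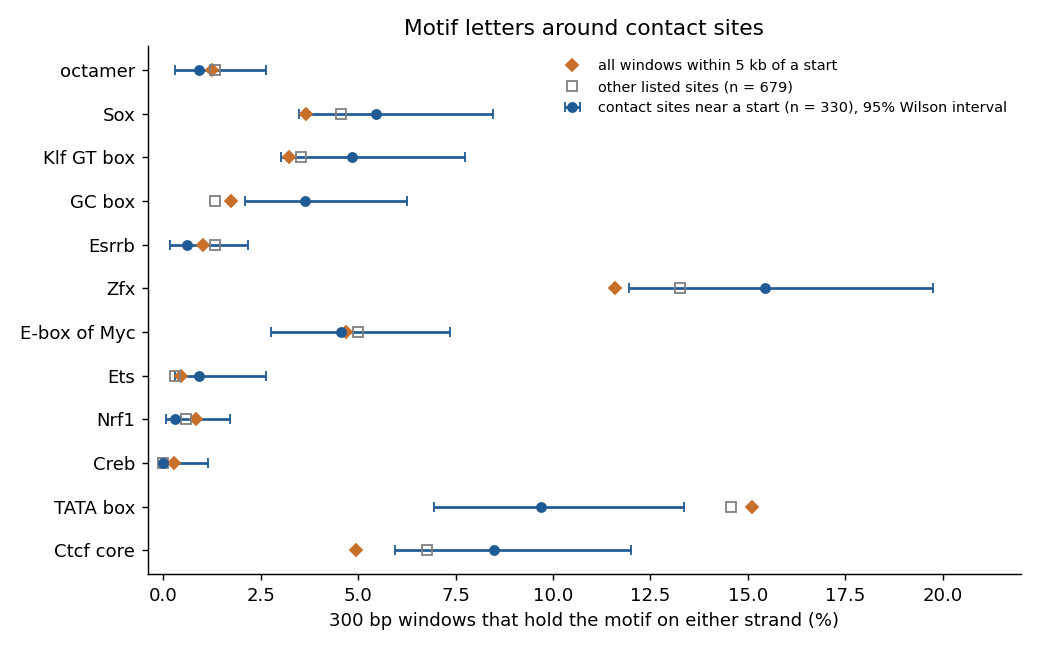
Percent of 300 bp windows that hold each of 12 motifs on either strand, for the 330 interacting sites near starts (filled circles, with 95% Wilson intervals), for all windows within 5 kb of a start (diamonds) and for the 679 other listed sites (open squares). The intervals of the GC box, the Ctcf letters and the Zfx letters (15.5% against 11.6%) lie above the diamonds. That of the TATA box (9.70% against 15.1%) lies below, and those of the other motifs include them.

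In all, 294 of the 22350 protein-coding genes (1.32%) had a transcript start within 5 kb of a listed site. Of the 2217 protein-coding genes with a start inside the regions, 287 (12.9%) did. Most of these genes had a single site: 273 had 1 site, 18 had 2, 2 had 3 and 1 had 4. By site, 257 had 1 such gene within 5 kb, 28 had 2, 2 had 3 and 43 had none.

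Arhgef10l, which encodes a guanine nucleotide exchange factor and is 152 kb long, had the most sites, with 4. They lay at -3276, -3874, 3959 and 4737 bp from their nearest starts, all of them internal starts of the gene. Tpd52, whose product takes part in membrane trafficking, had 3 sites at 563, -947 and -4288 bp, and Prex1, an exchange factor gene for Rac, had 3 at 1469, -3138 and -4923 bp. Shorter genes with 2 sites were Itgb1bp3, a nicotinamide riboside kinase gene (1235 and 3853 bp), Gm13060 (-866 and 2211 bp), Nptx1, the neuronal pentraxin gene (-1591 and -3629 bp), Fam180a (-12 and -1656 bp) and Map4k2, a kinase gene (73 and -4455 bp). For Nptx1 the start of the lincRNA Gm11762 was nearer to both sites. The Itgb1bp3 site at 3853 bp was nearer to a start of 2310050B05Rik (3493 bp), and the Map4k2 site at -4455 bp to one of Men1, the menin gene (-230 bp). The list does not tell whether sites of 1 gene came from the same replicate. Sites of 1 gene lie in the same region and were called together with it, so they are not independent.

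Genes of pluripotency, chromatin and signalling were few among those with a site, in a share whose interval included that of all protein-coding genes. Over 7 lists of such genes, 5 of 393 (1.27%, 0.545 to 2.94%) had a site, beside 1.32% of all protein-coding genes. Of 48 pluripotency genes, 3 had a start in the regions and 1 had a site, namely Socs3, an inhibitor of LIF and Stat3 signalling, with a site 1987 bp upstream of its start. Med27 (-1588 bp) and Med4 (-3838 bp), subunits of Mediator, were the 2 of 57 genes of Mediator, cohesin and nuclear architecture. The Med27 site had an end with 2 copies in the genome and was at an internal start, 148104 bp from the 5′-most one. Of 98 chromatin regulators, 21 had a start in the regions and only Hdac11 had a site, in fact 2 sites, at 40 and 92 bp. Of 55 Wnt genes, 1 had a site, Csnk1e, which encodes a casein kinase that acts on Dishevelled (-1715 bp). None of 55 TGF-beta, 48 FGF and 32 Notch genes had one, with 5 of each list in the regions. Tgif1 and Skil, whose products repress Smad signalling, had sites but were not on the TGF-beta list.

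Among gene families, the solute carriers had the most genes with a site. These were 12 of 355 genes (3.38%, 1.94 to 5.81%), and of the 50 with a start in the regions 12 (24.0%), beside 12.9% of all protein-coding genes there. The nearest sites were at Slc7a10 (30 bp), Slc22a12, which encodes the kidney urate transporter (193 bp), Slc36a4 (234 bp, with an end of 8 copies in the genome) and Slc24a6 (-446 bp). Slc12a5, which encodes the neuronal chloride exporter, had a site at 2654 bp, and Slc41a3 had 2, at 3279 and -3738 bp, the latter nearer to a start of Gm15756 (-1039 bp). The family was chosen with earlier results of these data known, and it was 1 of 15 lists, so its share is a description. The 12 genes were in several regions of chromosomes 2, 4, 5, 6, 7, 9, 11 and 19.

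The other families had few sites or none. A single site counted for the neighbouring histone genes Hist2h2ab, Hist2h2ac and Hist2h2be (3 of 67 genes). Zinc finger genes named Zfp had 3 of 371 (0.809%), namely Zfp7, Zfp663 and Zfp839. Olfactory receptors had 1 of 1113, Olfr524, and vomeronasal receptors 0 of 322, but only 8 and 1 of these genes had a start in the regions. Hox genes (0 of 40) and histocompatibility genes named H2 (0 of 36) had no start in the regions at all. Ribosomal protein genes had 0 of 76, with 12 in the regions.

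**Figure D4:**
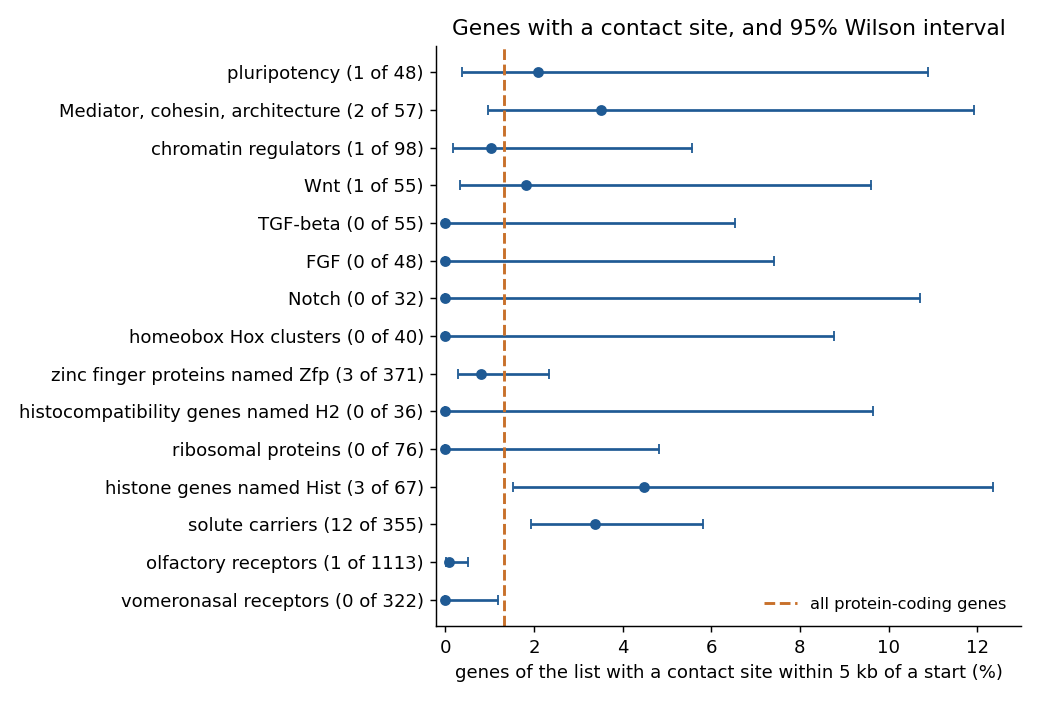
Percent of the genes of 15 lists with an interacting site within 5 kb of a transcript start (points, with 95% Wilson intervals and the counts beside the names) and the 1.32% of all protein-coding genes (dashed line). The intervals of the solute carriers (12 of 355) and of the histone genes, whose 3 genes share 1 site, lie above the line, and those of the olfactory (1 of 1113) and vomeronasal receptors (0 of 322) below it.

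Noncoding RNA genes were reached as well. The 5 nearest were Gm16099 (-37 bp), n-R5s74, a 5S rRNA gene (84 bp), the lincRNA Gm17608 (100 bp), Gm12589 (-176 bp) and a 7SK gene on chromosome 3 (188 bp). The 7SK RNA inhibits transcription elongation, and whether the copy on chromosome 3 is expressed was not measured. The Gm12589 site had an end with 2 copies in the genome, while the ends of the n-R5s74 and 7SK sites, genes that belong to families with many similar copies, occurred once. Gm17608 had a further site at -4760 bp, whose end had 2 copies.

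The sites lay in 44 of the 47 regions, with a median of 5 sites and at most 37 in a region. The share of a region's listed sites that lay near a start was set beside the share of its bases near a start, which ran from 6.38 to 73.2%. How closely both shares agreed was not measured. The share of sites was above the share of bases in 28 of the 47 regions. In chr17:29303980-29554793, a region of 4 listed sites, it was 0%, against 56.8% of bases. Among the 36 regions with at least 10 listed sites, 3 had an interval above the share of bases and 0 below. No adjustment was made for the number of regions. The near-start share rests on the distance that the rule used, so it is a description.

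These 3 regions held several of the genes named above, of which Arhgef10l, Gm13060 and Tpd52 were named for their number of sites. In the region chr4:132159092-141618278, with Arhgef10l, Pla2g2c and Gm13060, 34 of 63 sites (54.0%, 41.8 to 65.7%) were near a start, against 41.0% of bases. In chr6:90183428-92667682, with Hdac11, Slc41a3 and Nr2c2, they were 9 of 19 (47.4%, 27.3 to 68.3%, against 25.7%). In chr3:8240071-10486868, with Tpd52, they were 5 of 15 (33.3%, 15.2 to 58.3%, against 13.2%), and Tpd52 alone had 3 of the 5. The largest number, 37 of 71 (52.1%, 40.7 to 63.3%), was in chr11:112655168-121664255, with Socs3, Gprc5c, Mif4gd, Nptx1 and n-R5s74, where 42.7% of bases were near a start. Among the regions with at least 10 listed sites the highest share, 18 of 23 (78.3%), was in chr10:79073713-80963683, the region with the most bases near a start (73.2%). Sites that share a region are not independent, so these intervals cover counting error only.

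**Figure D5:**
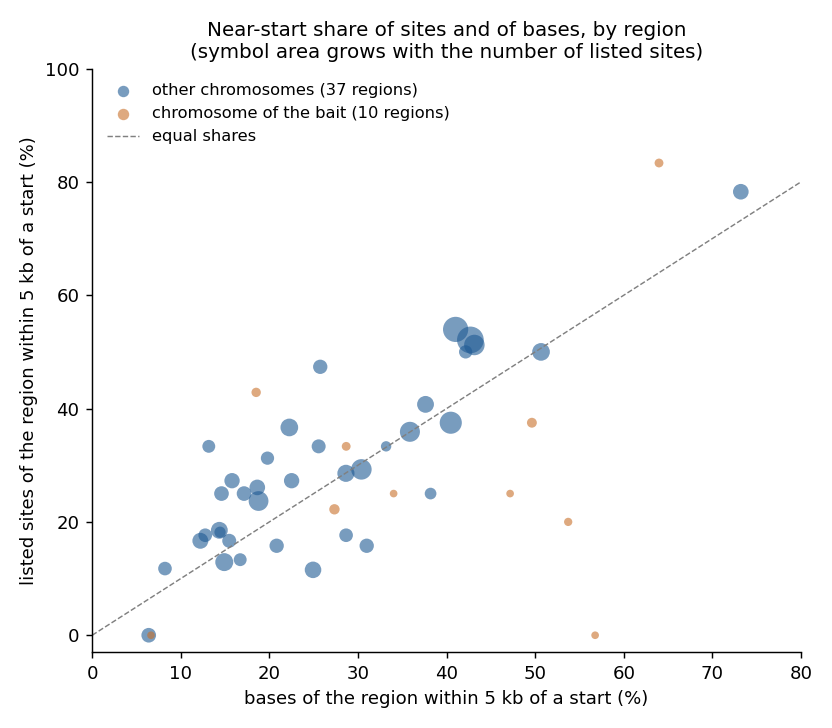
Percent of the listed sites of a region that lie within 5 kb of a start (vertical axis) against the percent of its bases that do (horizontal axis), for 37 regions on other chromosomes and 10 on that of the bait, with symbol area growing with the number of listed sites. Of the 47 points, 28 lie above the line of equal shares.

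On chromosome 17, 18 sites near starts lay in 8 of 10 regions, 12 at lower and 6 at higher coordinates than Pou5f1 (chr17:35642982-35647721, plus strand). None was within 5 kb of a Pou5f1 start. On the bait's chromosome the authors kept only tags more than 10 kb from the bait as distal. Sites beside the bait were thus left out beforehand, and the lack of one at Pou5f1 tells nothing of contact there. The nearest was 50.7 kb away, in Cdsn, the corneodesmosin gene of the epidermis, in a later exon 4623 bp from its start. The next were at Srpk1 (6884 kb) and Itpr3, a calcium channel gene of the endoplasmic reticulum (8452 kb), with sites at 614 and -3131 bp from their starts. The farthest were at Lpin2, a phosphatidate phosphatase gene (35912 kb), Tgif1 (35555 kb) and the pseudogene Gm15425 (26879 kb). The median distance from Pou5f1 was 10.3 Mb, 13 sites were beyond 10 Mb, and 1 was within 1 Mb. The bait is given here by the start of Pou5f1, since its coordinates are not given in the sources used here.

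In width and in the uniqueness of their ends the sites near starts did not differ from the others beyond the intervals. They had an end that occurs once in the genome in 313 of 330 cases (94.8%) and the others in 636 of 679 (93.7%), a difference of 1.18 points (-2.17 to 4.01). Sites of exactly 20 bp, the width of 1 tag, were 220 (66.7%) and 480 (70.7%), a difference of -4.03 points (-10.2 to 1.99). Another listed site within 10 kb was present for 38 (11.5%) and 83 (12.2%). Wider than 100 bp were 4 sites, among them those at Mmp17, a membrane-bound matrix metalloproteinase gene (198 bp wide, 4949 bp from the start), Tnfaip2 (118 bp wide, -277 bp) and Igfn1 (103 bp wide, 1620 bp). The Igfn1 site was at an internal start, 44822 bp from the 5′-most start of the gene.

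Of the 17 sites with no such end, 8 had 2 copies of the rarer end, 6 had 3 to 10 and 3 had more. The most copies were found at Asl, the argininosuccinate lyase gene (20 copies, site at -2051 bp), Zbtb17, which encodes the zinc finger protein Miz-1 (17 copies, 2959 bp), and Gm12762 (15 copies, 1666 bp), and the place of these sites is uncertain for that reason. At the 5 kb limit, the last sites inside were at Fyttd1 (4983 bp), Lrrn2 (4955 bp) and Rptor (4950 bp), and the first outside were at Git2 (5002 bp), Vav2 (5027 bp) and Timp2 (5069 bp).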

How the data were processed

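Mouse E14 ES cells were profiled by sonication-based 4C-Seq in 2 replicates. The deposited file holds chromosome, start and end of 1009 interacting sites in mm9, without count or score. To make it, the authors aligned 20-bp end tags with BWA, merged them with SAMtools, joined tags within 100 bp with BEDTools (versions not given in the sources used here), and kept sites of regions found in both replicates that passed a false discovery rate of 5%, or 20% for chromosome 17. They had left out tags close to the bait on its chromosome, and sites supported by a single read. Calling by neighbouring sites favours dense stretches, and merging by 100 bp sets the widths.

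Distances were taken from site middles to GENCODE vM1 transcript starts (NCBIM37), upstream negative. Sites were joined into regions across gaps of at most 1 Mb (200 kb on chromosome 17). Backgrounds were all sequenced bases of the regions (144830916, of which 40186749, or 27.7%, near a start), or every 100th position for G+C and motifs. Intervals are 95% (Wilson for shares, Newcombe for differences of shares, Student over regions for G+C) and cover counting error or the spread of regions only. No test across genes was made, and depth per sample is unknown from the list. Copies of 20-bp ends were counted on both strands without mismatches.

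Members, gene lists and motifs were chosen with earlier results of these data known. Named genes are those of the 12 closest sites with a unique end, up to 8 with the most sites, pathway genes with a site, 3 nearest to and 3 farthest from Pou5f1, those of sites over 100 bp (1 of which is not reported here), and the 5 nearest noncoding RNAs, and others are said to be chosen after their values were seen, or are examples of a gene family, of shared starts, of repeated ends or of the 5 kb limit. The computations were tested on simulated data and ran in Python 3.11.15, with scipy 1.17.1, numpy 2.4.6 and, for figures, matplotlib 3.10.9.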

Additional observations from a re-analysis of the deposited data

How the results depend on the processing

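Of 68 alternative settings over 14 results, 59 were counted as keeping the direction and the side of 0 of a difference, or a count or share near that reported, and 9 as moving it. The 59 include the limit of 10 kb for the number of sites, although it gave 485 in place of 330. Among the 59, the difference in CpG-rich starts shrank from -15.9 to -8.55 points with a 2 kb window and to -9.34 with stricter criteria, and the number of motifs apart from near-start windows was 3 with 150 bp windows, 5 with 600 bp and 3 without chromosome 17, in place of 4. A limit of 2.5 kb left 209 of the 330 sites and 183 of the 294 protein-coding genes, and a limit of 10 kb gave 468 genes and 12 genes of the 7 pathway lists in place of 5. Counting only the 5′-most start of each gene left 208 sites, of which 68.8% had a protein-coding gene as the nearest, against 68.5% of bases. Within 500 bp in place of 1 kb lay 18.2% of the sites, against 14.8% of bases. CpG-rich nearest starts were 17.6% with a 2 kb window (17.1% of bases) and 13.0% with the stricter criteria of 55% G+C and a ratio of 0.75 (14.4% of bases). The G+C settings for unique 20-bp sequences, within 1 kb and from 1 to 5 kb, were chosen after seeing the data. Apart from that motif count, leaving out chromosome 17, the region with the most sites, or the sites with repeated ends moved no value this far. No paired analysis was possible because replicates are pooled in the list, and no replicate could be left out for the same reason. The number of reads behind a site is unknown, so strength of contact could not be compared.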
